A study of Mus musculus with 24 samples.

Results

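The genes described here are the 7 that set the phosphorylation of the alpha subunit of eIF2, the initiation factor that carries the first tRNA to the ribosome. They were the eIF2alpha kinases Eif2ak1, Eif2ak2, Eif2ak3 and Eif2ak4, the regulatory subunits Ppp1r15a and Ppp1r15b of the eIF2alpha phosphatase, and Impact, an inhibitor of Eif2ak4. The members were chosen by symbol, read from the gene identifiers of the table, and all 7 symbols were found once among the 55450 genes of the table, with a value in each of the 24 libraries. The study disrupted Thumpd1, whose product binds tRNA and guides the enzyme Nat10 to the tRNAs of serine and leucine, and asked what loss of the modified base N4-acetylcytidine does to the tissues of a mouse. RNA of cerebellum, liver and testes was sequenced in wild-type (WT) and Thumpd1 knockout (KO) mice, with 4 libraries in each of the 6 groups. C57BL/6N eggs were edited with CRISPR-Cas9 guides to the first and the fourth exon of Thumpd1, the lines were kept on a C57BL/6 background, and the KO is carried in every cell of the body. The study used mice of either sex, aged 6 to 12 weeks. Unless it stated otherwise, the controls were littermates of the same age. Several edited lines were made, and which of them gave these tissues was not given in the sources used here. In each tissue the WT libraries are numbered 1 to 4 and the KO libraries 5 to 8. Nothing in the labels says whether libraries with the same number came from 1 animal.

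When eIF2alpha is phosphorylated, eIF2 binds and blocks its exchange factor eIF2B, general initiation of translation falls, and a few mRNAs with upstream reading frames, above all that of the transcription factor Atf4, are translated more. Each kinase senses another stress: Eif2ak1 (HRI) responds to low haem and to mitochondrial stress, Eif2ak2 (PKR) to double-stranded RNA, Eif2ak3 (PERK) to unfolded proteins in the endoplasmic reticulum, and Eif2ak4 (GCN2) to uncharged tRNA and stalled or collided ribosomes. Ppp1r15a (GADD34) is induced by stress and closes the loop by bringing protein phosphatase 1 to eIF2alpha, Ppp1r15b (CReP) does so in resting cells, and Impact, which is abundant in neurons, competes with Eif2ak4 for its activator Gcn1. The kinases are switched on through their proteins, and transcript levels, which were measured here, do not show that activity.

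Thumpd1 was lower in the KO libraries of all 3 tissues. Its expected counts were 0 to 2 in the KO libraries of cerebellum against 406 to 539 in WT, 0 to 4 against 248 to 325 in liver, and 23 to 41 against 740 to 846 in testes. Total counts lay between about 16353800 and 37889600 per library. Reads of the Y-linked gene Eif2s3y were counted in all 24 libraries, 278 to 1243 of them in each. Those of Ddx3y, Kdm5d and Uty were counted in all 24 as well, at least 221 in each, so that the mice sampled were male. The labelled tissues carried their defining markers. Summed levels of 10 granule cell markers were 4965 to 5064 scaled CPM in WT cerebellum, 8 hepatocyte markers summed to at least 94337 in WT liver, and 7 elongating spermatid markers to 10318 to 11131 in WT testes, against at most 0.378 in the WT libraries of the other tissues. In cerebellum 6 choroid plexus markers summed to between 7.42 and 789 scaled CPM in WT and between 9.14 and 258 in KO. RNA came from a piece cut from each organ and not from sorted cells, so that fewer cells of a type and less RNA per cell cannot be told apart.

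All 168 member values were whole numbers within 0.001, from 101 to 4706 counts, so that counting error alone gave a coefficient of variation of 9.95% for the lowest value and of 1.46% for the highest. Levels are given as TMM-scaled FPKM, that is, CPM of the TMM-scaled library divided by the length of all exons of the gene in kilobases. By the GENCODE M21 annotation of mm10, Eif2ak1 lies at chr5:143817788-143904251 on the plus strand, Eif2ak2 at chr17:78852564-78882573 on the minus strand, Eif2ak3 at chr6:70844515-70905245 on the plus strand and Eif2ak4 at chr2:118388618-118475234 on the plus strand. Ppp1r15a lies at chr7:45522916-45526268 on the minus strand and Ppp1r15b at chr1:133131143-133139783 on the plus strand. Exons of 5 members overlap an exon on the opposite strand, which matters only if counting ignored strand, a setting not given in the sources used here. The overlap covered 8.59% of the exon length of Eif2ak1 (with Aimp2) and 3.03% (with Ankrd61), 8.05% of Eif2ak3, 11.4% of Ppp1r15b, 3.40% of Eif2ak2 and 0.409% of Ppp1r15a (with Tulp2). Eif2ak4 and Impact had no such overlap.

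The promoters of Ppp1r15a and Eif2ak2 are shown because these are the members known to be transcribed in response to a signal, stress for Ppp1r15a and interferon for Eif2ak2, and the genes of both responses were measured beside them. The windows run from 250 bases before to 50 bases after the RefSeq start on GRCm38.p6, are written 5′ to 3′ on the strand of the gene, and show matched motifs in capitals.
Ppp1r15a, chr7:45526219-45526518, minus strand: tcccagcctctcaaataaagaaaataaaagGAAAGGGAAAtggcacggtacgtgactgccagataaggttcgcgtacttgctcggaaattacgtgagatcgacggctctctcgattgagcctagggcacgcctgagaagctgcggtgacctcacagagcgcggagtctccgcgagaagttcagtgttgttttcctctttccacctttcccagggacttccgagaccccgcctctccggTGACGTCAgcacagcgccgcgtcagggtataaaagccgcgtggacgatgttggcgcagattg
Eif2ak2, chr17:78882523-78882822, minus strand: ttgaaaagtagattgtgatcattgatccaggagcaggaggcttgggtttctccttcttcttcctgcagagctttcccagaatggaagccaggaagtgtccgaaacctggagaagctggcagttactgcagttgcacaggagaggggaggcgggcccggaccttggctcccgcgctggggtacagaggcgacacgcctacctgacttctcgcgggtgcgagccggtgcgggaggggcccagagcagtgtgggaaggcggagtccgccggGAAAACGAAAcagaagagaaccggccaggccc
Promoters of 5 of the 7 members were in the table of RefSeq promoters, and 6 windows were searched on both strands, since Eif2ak4 had 2 of them. The cAMP response element TGACGTCA, which factors of the CREB and ATF family bind, was found at position -12 of Ppp1r15a and in 1.79% of 32851 promoters. The interferon-stimulated response element, searched as GAAA, any 2 bases and GAAA, was found at position 18 of Eif2ak2 and at position -220 of Ppp1r15a, and in 3.44% of all promoters. No member window held the CEBP-ATF response element TGATGNAA, present in 3.97% of all promoters, or the endoplasmic reticulum stress element (CCAAT, any 9 bases and CCACG), present in 0.119%. The matches printed do not overlap each other. They are runs of letters and not tested sites.

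In WT tissues the 7 genes ranked differently in each tissue. In cerebellum Impact stood first, at 15.5 ± 0.587 FPKM (SD, n = 4), followed by Ppp1r15b at 9.92 ± 0.240, Eif2ak1 at 6.99 ± 0.254, Eif2ak3 at 5.62 ± 0.172, Eif2ak4 at 4.43 ± 0.160, Ppp1r15a at 3.48 ± 0.256 and Eif2ak2 at 0.955 ± 0.0597, and no neighbours in this order overlapped. In liver Ppp1r15b led at 38.4 ± 5.03 FPKM and Eif2ak1 followed at 10.2 ± 0.558. Ppp1r15a at 5.48 ± 0.887 and Eif2ak3 at 5.39 ± 0.740 overlapped in liver, as did Eif2ak2 at 3.22 ± 0.440, Eif2ak4 at 2.85 ± 0.449 and Impact at 2.57 ± 0.319. In testes Ppp1r15b at 10.3 ± 0.265 and Eif2ak1 at 8.29 ± 0.0827 again led, followed by Eif2ak2 at 2.88 ± 0.346. Ppp1r15a at 1.97 ± 0.229, Eif2ak4 at 1.68 ± 0.118 and Impact at 1.63 ± 0.167 overlapped there, and Eif2ak3 stood last at 0.892 ± 0.0533. The constitutive phosphatase subunit Ppp1r15b was the first or the second of the 7 genes by level in each tissue and lay above the stress-induced Ppp1r15a in every WT library.

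**Figure D1:**
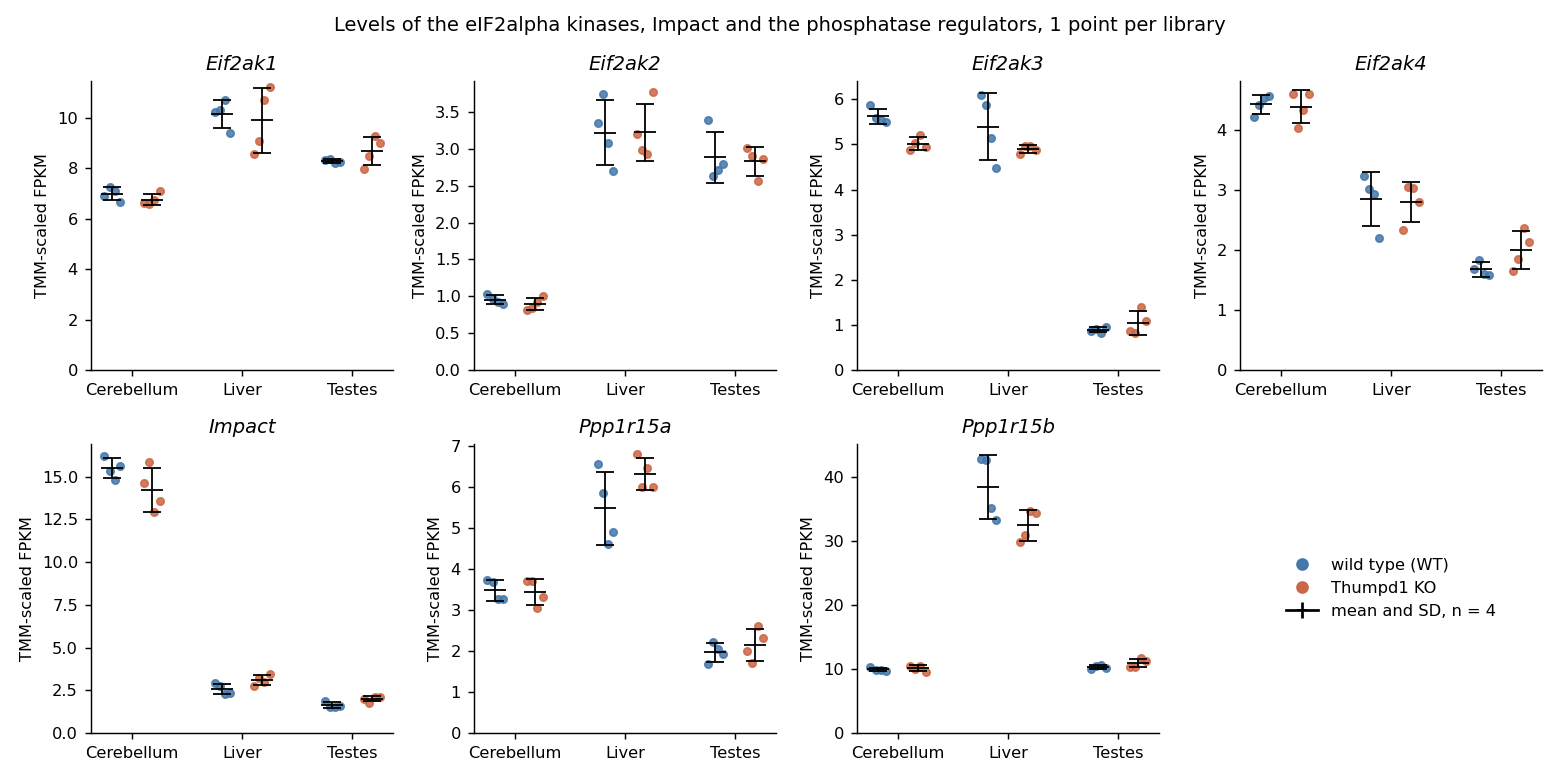
Level of each gene in TMM-scaled FPKM (vertical axes from 0, 1 panel per gene) in cerebellum, liver and testes. Blue points are WT and orange points KO libraries, and black marks give the mean and SD of 4 libraries. Impact is highest in cerebellum, at 15.5 FPKM in WT, and Ppp1r15b in liver, at 38.4 FPKM in WT, whereas Eif2ak3 in WT cerebellum (5.62) and liver (5.39) and Ppp1r15b in WT cerebellum (9.92) and testes (10.3) lie close together.

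Differences between the WT tissues were tested over all 24 libraries with limma-voom and TMM scaling, as 3 comparisons that share their WT groups. Of the 21 pairs of member and comparison 18 passed an adjusted p of 0.05. Passing was common among all 22678 genes tested, at 85.3% for cerebellum against liver, 89.7% for testes against liver and 89.3% for testes against cerebellum, so that the count says little of these 7 genes. The tissues also differ in composition. On the TMM scale the median gene lay 0.87 (log2) higher in WT testes than in WT liver and 0.40 higher than in WT cerebellum, whereas cerebellum and liver differed by -0.04. The genes tested had at least 1 CPM in at least 4 of the 24 libraries, so that genes expressed in 1 tissue alone count in this median. Their part in it, and in the values given relative to it, was not tested. Relative to that median, 18 of the 21 differences kept their sign under all 6 scalings and tests tried. The exceptions were Eif2ak1 and Ppp1r15b in testes against cerebellum and Eif2ak3 in cerebellum against liver. Taking off the median of each setting removes any shift common to all genes, and several of the 6 settings share the TMM factors. Most signs were therefore likely to be kept, and the share of all genes that kept theirs was not counted.

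Impact showed the widest range of the 7 genes. Its level in WT cerebellum was 9.52-fold that in WT testes and 6.03-fold that in WT liver. The log2 difference between cerebellum and liver was 2.59 (SE 0.0960, limma adjusted p = 4.61e-17), or 2.63 relative to the median gene. Between testes and cerebellum it was -3.25 (SE 0.0896, limma adjusted p = 1.10e-19), or -3.66 relative to the median gene. The log2 difference testes minus liver was -0.66 (SE 0.115, limma adjusted p = 1.39e-05), a difference that library totals alone turned to 0.28 while the value relative to the median gene remained between -1.61 and -0.95.

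Among the kinases, Eif2ak3 differed most between tissues. Eif2ak3, the kinase of the endoplasmic reticulum, was 6.30-fold higher in WT cerebellum than in WT testes (testes minus cerebellum -2.65 on the log2 scale, SE 0.120, limma adjusted p = 1.23e-15). Cerebellum and liver differed in Eif2ak3 by 0.06 (95% interval -0.13 to 0.25), which did not pass the test (limma adjusted p = 0.528). Leaving out liver WT library 4 moved that value to -0.02, and library totals or quantile scaling brought it past the threshold at 1.26 and 0.22. Eif2ak4, the sensor of uncharged tRNA, was 1.56-fold higher in cerebellum than in liver (log2 0.64, SE 0.107, limma adjusted p = 1.14e-05) and 2.64-fold higher than in testes (testes minus cerebellum -1.40, SE 0.104, limma adjusted p = 1.5e-11).

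Eif2ak2 went the other way. The kinase that binds double-stranded RNA was 3.37-fold higher in WT liver than in WT cerebellum (cerebellum minus liver -1.74, SE 0.131, limma adjusted p = 2.55e-11) and 3.02-fold higher in testes than in cerebellum (log2 1.58, SE 0.123, limma adjusted p = 3.62e-11). Liver and testes overlapped, and their log2 difference of -0.16 (95% interval -0.37 to 0.05) did not pass (limma adjusted p = 0.130). It passed without liver WT library 4 (adjusted p = 0.0335) and without testes WT library 1 (adjusted p = 0.0236), and library totals alone turned it to 0.77. Eif2ak1, the haem-regulated kinase, varied least, by 1.45-fold between liver and cerebellum. All 3 of its differences passed on the TMM scale, and all 3 changed sign with library totals as the only scaling.

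Both phosphatase subunits were highest in liver on the TMM scale. Ppp1r15b was 3.87-fold higher in WT liver than in WT cerebellum (cerebellum minus liver -1.95, SE 0.0757, limma adjusted p = 1.16e-16) and 3.74-fold higher than in testes (testes minus liver -1.90, SE 0.0735, limma adjusted p = 6.38e-17). Testes and cerebellum differed in Ppp1r15b by 0.05 (95% interval -0.12 to 0.22, limma adjusted p = 0.555), and quantile scaling and library totals turned this value to -0.26 and -0.21. Ppp1r15a was 2.78-fold higher in liver than in testes (testes minus liver -1.48, SE 0.130, limma adjusted p = 3.19e-10). Its difference between cerebellum and liver was -0.64 (SE 0.120, limma adjusted p = 4.25e-05), which library totals turned to 0.55, whereas relative to the median gene it remained between -0.72 and -0.52.

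Shares within a library do not depend on scaling between libraries. Each kinase was therefore expressed as a share of the 4 kinase transcripts per kilobase of exons. Eif2ak1 held the largest share in every group, 38.8% ± 0.905 in WT cerebellum, 47.2% ± 2.77 in WT liver and 60.3% ± 1.35 in WT testes (SD, n = 4). Eif2ak3 went from 31.2% ± 0.915 in cerebellum to 24.9% ± 1.47 in liver and 6.50% ± 0.426 in testes. The share of Eif2ak2 was 5.31% ± 0.298, 14.8% ± 1.01 and 20.9% ± 1.96 in the same order. Eif2ak4 held 24.6% ± 1.10 of the kinase transcripts in WT cerebellum, 13.1% ± 0.998 in WT liver and 12.2% ± 0.782 in WT testes. In WT cerebellum its 4 values, 23.3% to 25.9%, were above all 8 values of the other WT tissues, where liver (11.7% to 14.1%) and testes (11.7% to 13.4%) overlapped. In the KO libraries the shares of Eif2ak4 were 25.7% ± 1.19, 13.5% ± 1.37 and 13.7% ± 1.26, and all 4 kinases overlapped between WT and KO in liver and testes. In cerebellum the range of Eif2ak3 was 28.0% to 30.5% in KO and 30.6% to 32.6% in WT. No test was run on the shares.

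**Figure D2:**
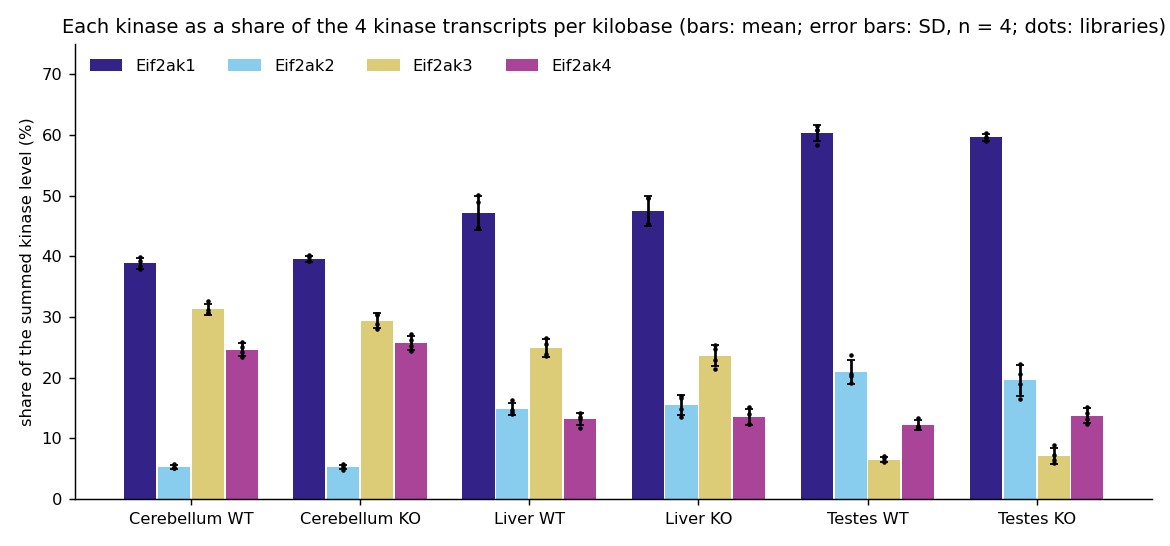
Share of each kinase in the summed level of the 4 kinases (vertical axis, %, from 0) in the 6 groups. Bars are means, error bars SD over 4 libraries and dots single libraries. Eif2ak1 leads in all groups, the share of Eif2ak3 is 31.2% in WT cerebellum and 6.50% in WT testes, and the WT and KO dots overlap for all 4 kinases in liver and testes.

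In the KO comparison none of the 7 genes passed in any tissue. Each tissue was fitted apart with limma-voom on quantile-normalized counts, with p-values adjusted over all genes tested and a threshold of 0.05. In cerebellum 0 of 7 members passed, where 6.44% of 16225 genes did. In liver 0 of 7 passed, where 5.91% of 12816 genes did, and in testes 0 of 7, where 20.5% of 19329 genes did. An unadjusted p under 0.05 was found for 1 member in cerebellum, 2 in liver and 1 in testes, against 24.2%, 23.3% and 37% of all genes. With edgeR 1, 0 and 1 members passed in cerebellum, liver and testes (6.53%, 6.3% and 23% of all genes), and with DESeq2 0, 0 and 1 (8.23%, 11% and 26.1%). The 21 log2 changes lay between -0.17 and 0.30, and their 95% intervals reached from -0.32 to 0.54. A change of more than 1.46-fold thus lay outside the interval of every member in every tissue.

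**Figure D3:**
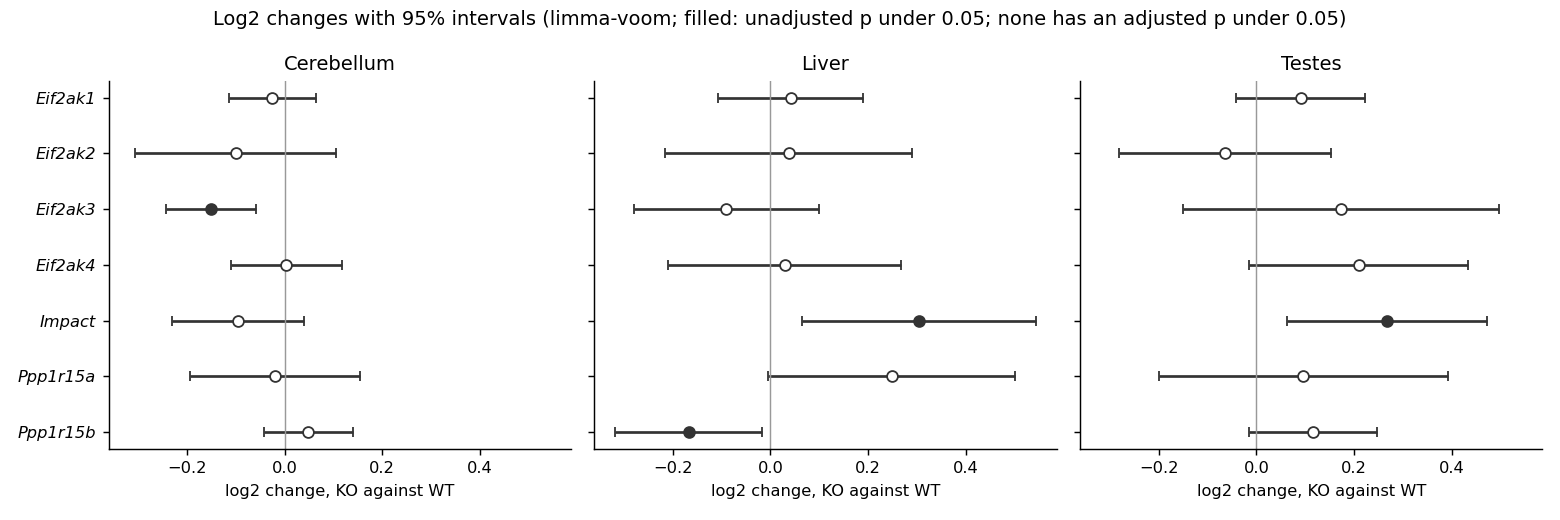
Log2 change of each gene between KO and WT (horizontal axis) with its 95% interval from limma-voom, in 1 panel per tissue. Filled points have an unadjusted p under 0.05. They are Eif2ak3 in cerebellum at -0.15, Impact and Ppp1r15b in liver at 0.30 and -0.17, and Impact in testes at 0.27, and none has an adjusted p under 0.05.

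Eif2ak3 in cerebellum came nearest to the threshold. The WT libraries had 5.87, 5.57, 5.54 and 5.49 FPKM and the KO libraries 4.87, 5.03, 5.21 and 4.94. Every KO library lay below every WT library, and Eif2ak3 was the only one of the 7 members whose groups did not overlap in cerebellum, where this held for 15.1% of all genes. In liver and testes 0 of 7 members had groups that did not overlap, against 12.9% and 27.5% of all genes. The log2 change was -0.15 (SE 0.0428, 95% interval -0.24 to -0.06) with a limma adjusted p of 0.0534. The call depended on the method, since the adjusted p was 0.0359 with edgeR, 0.0259 with sample weights in limma and 0.0344 without KO library 6, and ranged up to 0.555 over the settings tried. In the same libraries the forebrain neuron markers summed to 68.8 to 74.0 scaled CPM in WT and 101 to 133 in KO, with 3 of 7 tested markers higher and 0 lower, where 3.93% of all genes were higher. Their median log2 change was 0.33, and Nrgn had the largest, 3.42. The granule cell markers summed to 4965 to 5064 in WT and 4368 to 4844 in KO, with 4 of 10 lower (Zic1, Gabra6, Neurod1 and Etv1), where 2.51% of all genes were lower. The median log2 change of the 10 granule cell markers was -0.025, against -0.006 for all genes. The part of the forebrain neuron and granule cell markers in the value of Eif2ak3 was not tested.

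In liver the WT libraries had 6.10, 5.87, 5.14 and 4.47 FPKM of Eif2ak3 and the KO libraries 4.78, 4.95, 4.97 and 4.87. The groups overlapped, and the log2 change was -0.09 (SE 0.0862, limma adjusted p = 0.577). It ranged from -0.05 without WT library 1 to -0.17 with sample weights and did not pass in any setting. In testes the Eif2ak3 values were 0.868, 0.923, 0.830 and 0.949 in WT and 0.870, 0.831, 1.40 and 1.08 in KO. KO library 7 stood highest, and the change of 0.17 (SE 0.147, limma adjusted p = 0.414) was 0.02 without that library and turned to -0.05 with sample weights.

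Eif2ak4, whose activation by stalled ribosomes was a question of the study, had nearly equal transcript levels in KO and WT cerebellum. The WT libraries had 4.21, 4.41, 4.53 and 4.57 FPKM and the KO libraries 4.59, 4.03, 4.33 and 4.61, with wide overlap. The log2 change was 0.00 with a 95% interval of -0.11 to 0.12 (SE 0.0526, limma adjusted p = 0.976). In liver, where the WT values were 3.23, 3.02, 2.94 and 2.20 and the KO values 2.34, 3.05, 3.03 and 2.80, it was 0.03 with an interval of -0.21 to 0.27 (SE 0.108, limma adjusted p = 0.904). In testes the values were 1.69, 1.84, 1.60 and 1.58 in WT and 1.66, 1.86, 2.37 and 2.14 in KO. KO libraries 6, 7 and 8 lay above all WT libraries, library 6 by little, and KO library 5 lay within them, and the change of 0.21 (SE 0.103, 95% interval -0.02 to 0.43) had a limma adjusted p of 0.161. It was 0.29 without KO library 5 (limma adjusted p = 0.0380), 0.13 without KO library 7 (limma adjusted p = 0.369) and 0.12 with sample weights (limma adjusted p = 0.225).

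The log2 changes of Eif2ak1 and Eif2ak2 were small in all 3 tissues. Eif2ak1 ranged from 6.67 to 7.27 FPKM in WT and 6.58 to 7.08 in KO cerebellum, from 9.39 to 10.7 and 8.55 to 11.2 in liver, and from 8.20 to 8.37 and 7.97 to 9.26 in testes. Its log2 changes were -0.02 (SE 0.0411), 0.04 (SE 0.0675) and 0.09 (SE 0.0603), with limma adjusted p of 0.754, 0.766 and 0.293. In the liver KO group libraries 5 and 6, with the fewest counts of that group (about 19958700 and 18145700), had 8.55 and 9.10 FPKM of Eif2ak1, and libraries 7 and 8, with about 37889600 and 30258500, had 10.7 and 11.2. The part of depth in these values was not tested. Eif2ak2 ranged from 0.895 to 1.03 FPKM in WT and 0.818 to 1.00 in KO cerebellum, from 2.70 to 3.74 and 2.93 to 3.77 in liver, and from 2.64 to 3.39 and 2.56 to 3.01 in testes. Its log2 changes were -0.10 (SE 0.0952), 0.04 (SE 0.115) and -0.06 (SE 0.0988), with limma adjusted p of 0.558, 0.885 and 0.661.

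Impact, the inhibitor of Eif2ak4, had an unadjusted p under 0.05 in liver and testes and not in cerebellum. In liver the WT libraries had 2.93, 2.75, 2.26 and 2.35 FPKM and the KO libraries 2.73, 3.22, 3.00 and 3.45. KO library 5 lay below WT libraries 1 and 2, and the other KO libraries lay above all WT libraries. The log2 change was 0.30 (SE 0.108, 95% interval 0.07 to 0.54) with a limma adjusted p of 0.125, which lay between 0.0669 and 0.266 under all settings and libraries left out. In testes the values were 1.87, 1.54, 1.497 and 1.60 in WT and 2.00, 1.78, 2.13 and 2.13 in KO. KO library 6 lay below WT library 1, and all other KO values were above all WT values. The log2 change was 0.27 (SE 0.0938, 95% interval 0.06 to 0.47) with a limma adjusted p of 0.0629. It passed at 0.0210 with DESeq2, 0.0392 with edgeR, 0.0383 with TMM, 0.0486 in the fit over 24 libraries, 0.0385 without WT library 1 and 0.0400 without KO library 6. It did not pass in the remaining settings, with adjusted p up to 0.125, or without any other library, with adjusted p up to 0.169.

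In cerebellum, where its level was highest, Impact had 16.2, 15.3, 14.8 and 15.6 FPKM in WT and 14.6, 15.8, 12.9 and 13.6 in KO. KO library 6 lay among the WT values and the other KO libraries below them, and the log2 change was -0.09 (SE 0.0627, 95% interval -0.23 to 0.04, limma adjusted p = 0.381). Single libraries decided the size of this change of Impact, which was -0.16 without KO library 6 (limma adjusted p = 0.0531) and -0.04 without KO library 7 (limma adjusted p = 0.751). In testes 7 of 10 Sertoli cell markers were higher in KO (their sum 380 to 440 scaled CPM in WT, 480 to 649 in KO), 5 of 8 round spermatid markers lower (1010 to 1054 against 757 to 939) and 5 of 7 elongating spermatid markers lower (10318 to 11131 against 7144 to 9270), where 9.74% of all genes were higher and 10.7% lower. Their part in the values of Impact and Eif2ak4 was not tested.

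Ppp1r15b and Ppp1r15a had log2 changes of opposite sign in liver, neither past the threshold. For Ppp1r15b the WT libraries had 42.8, 42.6, 35.0 and 33.2 FPKM and the KO libraries 29.9, 30.8, 34.6 and 34.3. WT libraries 1 and 2 stood above all others, and WT libraries 3 and 4 overlapped KO libraries 7 and 8. The log2 change was -0.17 (SE 0.0682, 95% interval -0.32 to -0.02) with a limma adjusted p of 0.173, or 0.0433 with sample weights and 0.0490 in the fit over 24 libraries.

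For Ppp1r15a the liver WT libraries had 6.55, 5.84, 4.62 and 4.90 FPKM and the KO libraries 6.79, 6.00, 6.46 and 5.99. Every KO library lay above WT libraries 2, 3 and 4, and WT library 1 lay among the KO libraries. The log2 change was 0.25 (SE 0.115, 95% interval -0.00 to 0.50) with a limma adjusted p of 0.223. Sample weights lowered the change to 0.14 (limma adjusted p = 0.399), and leaving out WT library 3 lowered it to 0.17. Set against each other within a library, Ppp1r15b per Ppp1r15a was 7.05 ± 0.481 in WT liver (6.54 to 7.59) and 5.16 ± 0.563 in KO liver (4.40 to 5.74), and the groups did not overlap. This ratio needs no scaling between libraries, but its size depends on the gene lengths. Without a length correction it was 13.4 ± 0.916 in WT liver (12.4 to 14.5) and 9.82 ± 1.07 in KO liver (8.37 to 10.9). The lengths are the same in every library, so that they change all ratios by the same factor and cannot alter the overlap of groups. The ratio was chosen after the values had been seen and was given no test. In cerebellum it was 2.86 ± 0.170 in WT and 2.95 ± 0.340 in KO, and in testes 5.27 ± 0.521 and 5.15 ± 0.675.

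In cerebellum and testes both subunits overlapped between genotypes. Ppp1r15b had 10.3, 9.86, 9.89 and 9.69 FPKM in WT and 10.4, 9.90, 10.5 and 9.51 in KO cerebellum (log2 change 0.05, SE 0.0420, limma adjusted p = 0.515). In testes it had 10.04, 10.5, 10.5 and 10.1 in WT and 10.4, 10.3, 11.6 and 11.3 in KO (log2 change 0.12, SE 0.0601, limma adjusted p = 0.184). KO libraries 7 and 8 stood above the WT libraries there. Ppp1r15a, the member induced by Atf4 and its partner Ddit3, had 3.72, 3.68, 3.26 and 3.26 FPKM in WT and 3.70, 3.69, 3.05 and 3.32 in KO cerebellum, and the log2 change was -0.02 with a 95% interval of -0.19 to 0.15 (SE 0.0805, limma adjusted p = 0.906). In testes it was 0.10 (SE 0.135, limma adjusted p = 0.635), and it ranged from -0.10 with sample weights to 0.19 without KO library 6.

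**Figure D4:**
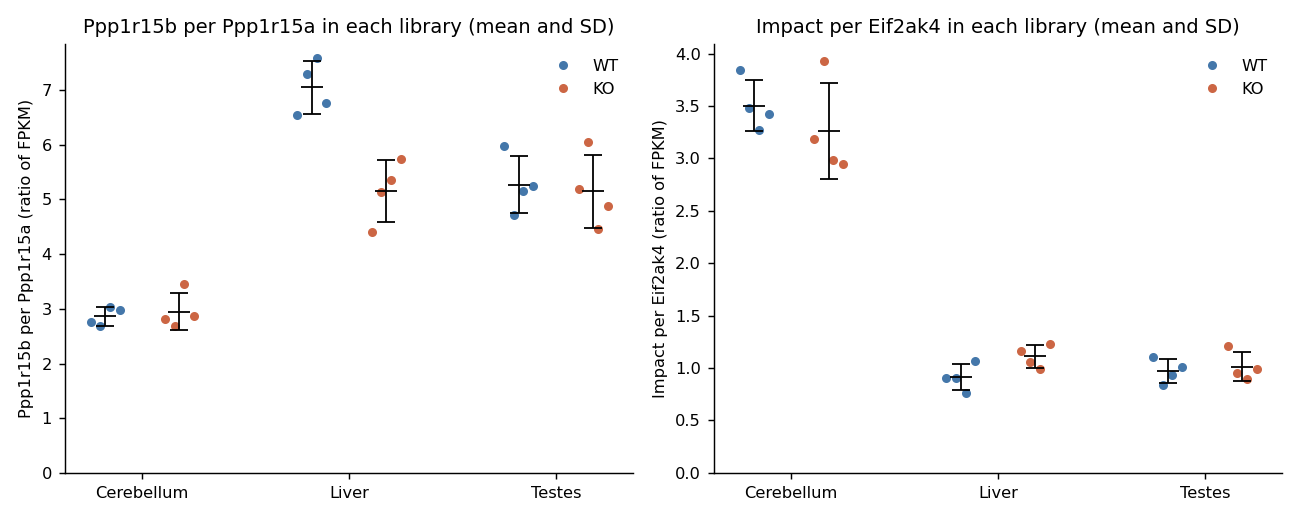
Ratio of FPKM within each library (vertical axes from 0) for Ppp1r15b per Ppp1r15a (left) and Impact per Eif2ak4 (right). Blue points are WT and orange points KO libraries, with mean and SD of 4 libraries in black. Ppp1r15b per Ppp1r15a is 6.54 to 7.59 in WT and 4.40 to 5.74 in KO liver, and Impact per Eif2ak4 is above 2.94 in every cerebellum library and at most 1.23 elsewhere.

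Impact per Eif2ak4, the inhibitor set against the kinase it restrains, was 3.50 ± 0.245 in WT cerebellum, 0.913 ± 0.123 in WT liver and 0.973 ± 0.115 in WT testes. In KO libraries it was 3.26 ± 0.459, 1.11 ± 0.109 and 1.02 ± 0.135 in the same order, and WT and KO overlapped in all 3 tissues. The lowest cerebellum library had an FPKM ratio of 2.95, against 1.23 in the highest library of the other tissues. The size of the ratio depends on the gene lengths. These extremes were 2.85 and 1.19 with the longest transcript as the length and 2.03 and 0.849 without a length correction. Either setting changes all libraries by the same factor and therefore cannot alter the separation of the tissues. Both phosphatase subunits together, per summed kinase level, came to 0.745 ± 0.0211 in WT cerebellum, 2.03 ± 0.152 in WT liver and 0.892 ± 0.0541 in WT testes. The KO values were 0.793 ± 0.0483, 1.86 ± 0.0712 and 0.894 ± 0.0308.

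Whether the KO effect differed between tissues was tested over all 24 libraries with limma-voom and TMM scaling on the 11112 genes above the filter for low counts in all tissues. Of the 21 pairs of member and comparison 2 passed, both of Impact. Among all genes 7.67% passed for cerebellum against liver, 15.9% for testes against liver and 14.5% for testes against cerebellum. The KO effect on Impact, cerebellum minus liver, was -0.43 on the log2 scale (SE 0.129, 95% interval -0.70 to -0.16, limma adjusted p = 0.0410). Testes minus cerebellum was 0.35 (SE 0.119, 95% interval 0.11 to 0.60, limma adjusted p = 0.0464). Both comparisons share the cerebellum libraries. Testes and liver differed by -0.08 (95% interval -0.39 to 0.23, limma adjusted p = 0.771).

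Both calls of Impact were close to the threshold and depended on single libraries. The difference between cerebellum and liver lost its call, with adjusted p of 0.0506 to 0.0940, without liver WT libraries 2 or 3, liver KO libraries 6 or 8, cerebellum WT libraries 1 or 4, or cerebellum KO libraries 5, 7 or 8. That between testes and cerebellum lost its call, with adjusted p of 0.05004 to 0.106, without liver WT library 2, any of the cerebellum WT libraries, cerebellum KO libraries 5, 7 or 8, testes WT libraries 2, 3 or 4, or testes KO libraries 5, 7 or 8. It was also past the threshold neither with edgeR (0.0523), nor with DESeq2 size factors (0.0519), nor with the replicate number as a block (0.0782). For Ppp1r15b the KO effect in liver was lower than in cerebellum by 0.22 (limma adjusted p = 0.0821) and than in testes by 0.20 (limma adjusted p = 0.0723). Both of these passed without liver WT library 3 (0.0383 and 0.0318) and without liver WT library 4 (0.0298 and 0.0282).

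The genes around the regulators were taken from lists of their substrates, partners, activators and targets. For the counts that follow, 3.93% of all genes tested were higher and 2.51% lower in KO cerebellum. In KO liver 2.79% were higher and 3.12% lower, and for KO testes the shares were 9.74% and 10.7%. Of the subunits of eIF2 itself, Eif2s1 and Eif2s2 did not pass in any tissue. The Y-linked form of the gamma subunit, Eif2s3y, fell in KO cerebellum by 0.88 on the log2 scale (SE 0.136, limma adjusted p = 0.00280), from 32.9 to 37.4 scaled CPM in WT to 14.6 to 26.9 in KO. Its X-linked partner Eif2s3x rose there by 0.17 (SE 0.0343, limma adjusted p = 0.0146) and in testes by 0.28 (limma adjusted p = 0.0350). Whether other Y-linked genes fell together with Eif2s3y was not tested. Among the 5 eIF2B subunits and eIF5 Eif2b4 alone passed with limma, with a log2 change of -0.27 in testes (limma adjusted p = 0.00808). There edgeR and DESeq2 each called 2 of these 6 genes, against 23% and 26.1% of all genes. In cerebellum and liver 0 of these 6 passed with limma (3 and 0 by unadjusted p, 0 with edgeR and with DESeq2). Of the 3 catalytic subunits of protein phosphatase 1 that Ppp1r15a and Ppp1r15b bind, 0 passed in any tissue with limma, against 0, 1 and 2 by unadjusted p in cerebellum, liver and testes, 0 with edgeR, and 1 in liver with DESeq2. In cerebellum 3 of 7 forebrain neuron markers were higher and 4 of 10 granule cell markers lower. In testes 7 of 10 Sertoli cell markers were higher, and 5 of 8 round and 5 of 7 elongating spermatid markers lower. The part of these markers in the changes of Eif2s3y, Eif2s3x and Eif2b4 was not tested.

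Upstream of the kinases, 4 genes of 3 lists passed in cerebellum, 0 in liver and 4 in testes. Of 11 genes around the activation of Eif2ak4 by ribosomes 2 rose in cerebellum, the ribosomal stalk proteins Rplp0 and Rplp1, both by 0.27 on the log2 scale (limma adjusted p = 0.0151 and 0.00572). Reads of ribosomal protein genes may be shared with processed pseudogenes, so these values are uncertain. In testes the ribosome rescue factor Gtpbp1 rose by 0.25 and its paralogue Gtpbp2 had a log2 change of -0.20 (limma adjusted p = 0.0158 and 0.0308), and in liver 0 of 11 passed with limma (2 by unadjusted p, 0 with edgeR, 1 with DESeq2). Of 6 genes around Eif2ak1, 1 passed in cerebellum and 1 in testes, each an enzyme of the first step of haem synthesis. In cerebellum Alas2, the form of red cells, had a log2 change of -0.58 (limma adjusted p = 0.0391), a call that neither edgeR nor DESeq2 made, with 0 of the 6 genes passing in either. Erythroid markers, Alas2 among them, summed to 6.83 to 7.29 scaled CPM in WT and 3.49 to 5.85 in KO cerebellum, with a median log2 change of -0.56 over 4 tested, and their part in the value of Alas2 was not tested. In testes Alas1, the form of other cells, had a log2 change of -0.23 (limma adjusted p = 0.0425). Of 5 partners and regulators of Eif2ak2, Dnajc3, an inhibitor of Eif2ak2 and Eif2ak3, was lower in cerebellum (-0.23, limma adjusted p = 0.0172), and Adar, which edits double-stranded RNA, was higher in testes (0.34, limma adjusted p = 0.0489). In liver 0 of these 6 and 0 of these 5 genes passed with limma, edgeR or DESeq2, and 0 and 2 had an unadjusted p under 0.05. In the testes libraries that gave the calls of Gtpbp1, Gtpbp2, Alas1 and Adar, 7 of 10 Sertoli cell markers were higher in KO, and 5 of 8 round and 5 of 7 elongating spermatid markers were lower. The part of these markers in the 4 calls was not tested. In the cerebellum libraries behind the calls of Rplp0, Rplp1, Alas2 and Dnajc3, 3 of 7 forebrain neuron markers were higher. There 4 of 10 granule cell markers were lower, and the part of both lists in these calls was not tested.

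Beside Eif2ak3, 13 genes of the unfolded protein response were measured. In cerebellum 0 rose and 2 fell, the chaperones Hsp90b1 (-0.20, limma adjusted p = 0.0208) and Dnajb9 (-0.44, limma adjusted p = 0.0396). In the same libraries 3 of 7 forebrain neuron markers were higher and 4 of 10 granule cell markers lower. The part of these markers in the 2 cerebellum changes was not tested. In liver 0 of 13 passed with limma (3 by unadjusted p, 1 with edgeR, 2 with DESeq2). In testes 4 rose and 3 fell. Hspa5, the main chaperone of the endoplasmic reticulum, rose by 0.28 (limma adjusted p = 0.00985), Hsp90b1 by 0.24 (0.0111) and the sensor Ern1 by 0.42 (0.0185). Dnajb9 changed by -0.30 (0.0132) and Herpud1 by -0.26 (0.0164). The part in these testes changes of the Sertoli cell markers (7 of 10 higher) and spermatid markers (5 of 8 round and 5 of 7 elongating lower) was not tested.

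Downstream, 11 of 19 tested targets of the stress response rose in cerebellum and 0 fell, with a median log2 change of 0.33 against -0.01 for all genes. In the same cerebellum libraries 3 of 7 tested forebrain neuron markers were higher in KO (their sum 68.8 to 74.0 scaled CPM in WT and 101 to 133 in KO), 2 of 6 midbrain markers were higher (18.0 to 26.0 in WT and 23.6 to 26.1 in KO) and 4 of 10 granule cell markers were lower. Of the markers of other cells, 2 of 7 for oligodendrocytes, 2 of 6 for astrocytes and 2 of 7 for Purkinje cells were also higher and 0 lower, with median log2 changes of 0.19, 0.15 and 0.06, and their summed levels overlapped between WT and KO. The part of all these markers in the changes of the stress response targets was not tested. Atf4 had a log2 change of 0.33 (SE 0.0428, limma adjusted p = 0.00105), and its targets Atf5, Asns, Chac1 and Mthfd2 changed by 0.84, 0.50, 1.19 and 0.72 (limma adjusted p of 9.97e-06, 0.000306, 0.000464 and 0.00135). Ppp1r15a, which the same factors induce, was at -0.02 in these libraries. In liver 1 of 15 rose (Asns, 2.72, limma adjusted p = 0.00628) and 1 fell (Slc3a2, -0.34, limma adjusted p = 0.0360), and in testes 0 of 16 rose and 1 fell (Asns, -0.20, limma adjusted p = 0.0265). Atf4 was at 0.02 in liver and in testes (limma adjusted p = 0.965 and 0.877).

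Of the interferon-stimulated genes, which are read here beside Eif2ak2, 0 of 14 passed in cerebellum, 0 of 23 in liver and 1 of 13 in testes (Oasl2, 0.50, limma adjusted p = 0.0231). In cerebellum 0 had an unadjusted p under 0.05 and 0 passed with edgeR or DESeq2, and in liver 5, 0 and 2 did. Their median log2 changes were 0.04, 0.08 and 0.02. Immediate early genes, with which Ppp1r15a shares its rapid induction, rose in cerebellum for 5 of 16 tested and fell for 0. These were Egr3 at 3.27, Fosb at 2.70, Egr1 at 0.49, Arc at 0.36 and Btg2 at 0.25, with limma adjusted p of 0.000306, 0.000628, 0.00188, 0.00905 and 0.0381. The immediate early genes summed to 169 to 187 scaled CPM in the WT libraries of cerebellum and to 178 to 269 in the KO libraries, so that the sums overlapped. The part of the cell type markers given for the stress response targets was not tested here either. In testes Klf6 (0.51) and Ier2 (0.54) rose and Egr3 (-0.33) fell, with limma adjusted p of 0.00587, 0.0432 and 0.0497, and in liver 0 of 11 passed with limma (7 by unadjusted p, 0 with edgeR, 4 with DESeq2). Sertoli cell markers were higher (7 of 10) and round and elongating spermatid markers lower (5 of 8 and 5 of 7) in the same testes libraries, and their part in the changes of Klf6, Ier2, Egr3 and Oasl2 was not tested.

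**Figure D5:**
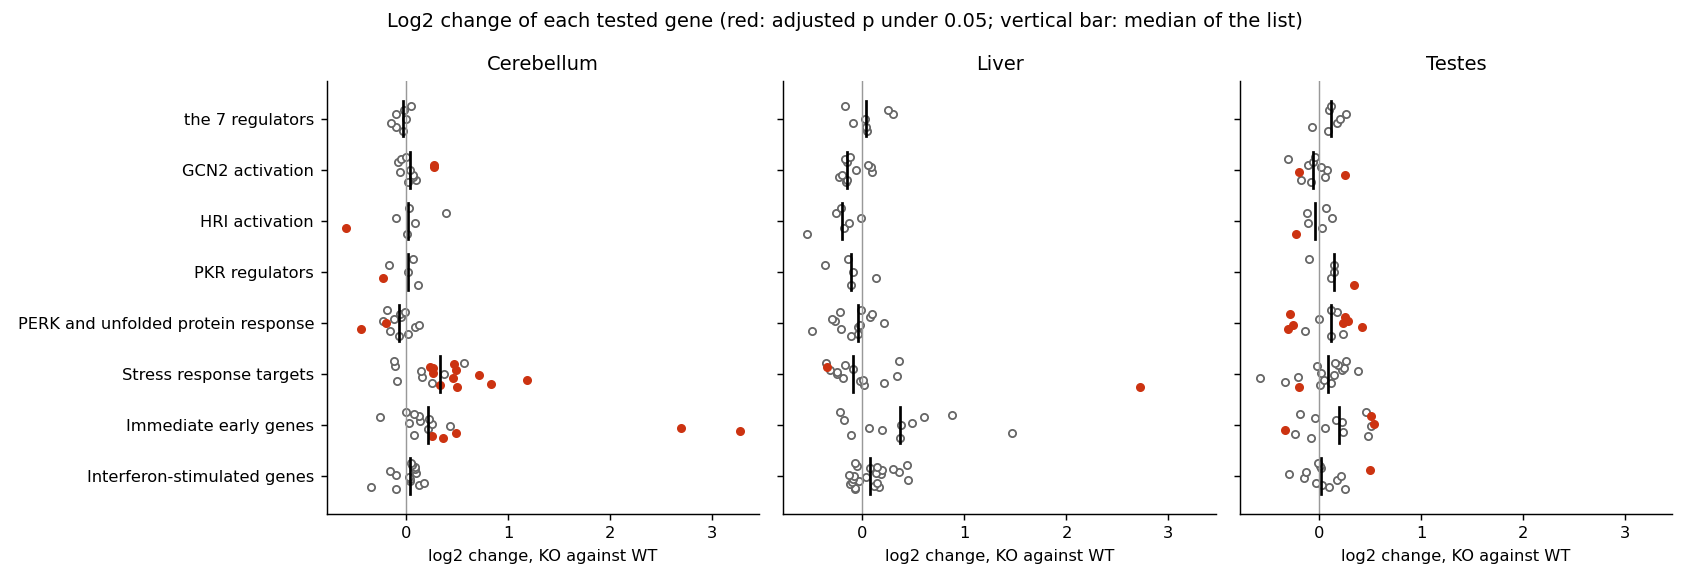
Log2 change between KO and WT (horizontal axis) of each tested gene of 8 lists, with the 7 regulators in the top row, in 1 panel per tissue. Red points have an adjusted p under 0.05, open points do not, and a vertical bar marks the median of the list. The 7 regulators lie between -0.17 and 0.30 in all tissues, whereas the stress response targets of cerebellum lie to the right with a median of 0.33.

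Over the 24 libraries, the genes whose log2 level ran most like each member were looked up among 10229 genes, with Pearson's r as the measure and no test, since tissue sets most of the variation that they share. For Impact they were Atp1b1, Syne1 and Napg (r = 0.995, 0.995 and 0.994), and for Eif2ak3 Pik3r1, Dgkq and Map2k1 (0.996, 0.996 and 0.995). For Ppp1r15b they were Lman2, Aldh6a1 and Shpk (0.997, 0.996 and 0.996). For Eif2ak4 they were Exoc4, Tbc1d10b and Map4k2 (0.982, 0.981 and 0.981), and for Eif2ak2 Gstt2, Cyb5d2 and Immp2l (0.990, 0.989 and 0.988). Ppp1r15a ran most like Fance, Wrnip1 and Ppp1r3c (0.979, 0.976 and 0.975), and Eif2ak1 like Dazap2, Bgn and Atg2a (0.978, 0.973 and 0.971).

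The reading frames of the 7 genes were compared for leucine codons, since leucine tRNAs are among those that Thumpd1 serves. Among 17798 genes with at least 20 leucine codons in the longest complete reading frame of GENCODE M21, leucine made up a median of 10.5% of codons, and UUA a median of 5.26% of the leucine codons. Eif2ak2 used UUA for 9 of its 42 leucine codons, or 21.4%, which placed it at the 97.6th percentile of these genes. Leucine codons other than CUC and CUG made up 78.6% of its leucine codons (98.9th percentile), against a median of 40.7%. The UUA share was 12.5% in Eif2ak1, 11.6% in Ppp1r15b, 8.00% in Impact, 7.60% in Eif2ak4, 6.06% in Eif2ak3 and 2.13% in Ppp1r15a. The longest frame was that of Eif2ak4, with 1648 codons, 171 of them for leucine and 13 of those UUA. Codon use is a feature of the sequence and was not related to any measured level here.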

How the data were processed

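Expected counts per gene were deposited by the authors for 24 libraries, made with STAR and RSEM on mm10 and GENCODE M21 from stranded, rRNA-depleted, paired-end libraries, with neither versions nor the strand setting of counting given in the sources used here. Library groups follow the labels, and 0 columns of values stayed unused. Members and gene lists were chosen with earlier results of these data known. Per tissue, genes with at least 1 CPM in at least 4 of 8 libraries were quantile normalized and tested with limma-voom 3.58.1 (R 4.3.3, Benjamini-Hochberg over all genes). Tissue comparisons used all 24 libraries with TMM factors (edgeR 4.0.16). The comparison of WT levels kept genes with at least 1 CPM in at least 4 of the 24 libraries. Alternatives were edgeR, DESeq2 1.42.0 (counts rounded), other scalings, no filter, sample weights and leaving out each library. The fits were also run on simulated data, with an outcome that is not given here. Named genes are Thumpd1, the 7 members, Atf4, up to 5 called genes per list and tissue by lowest p, and the 3 most similar genes per member. Marker genes named beside them were chosen after their values were seen. The study calls the libraries of a group biological replicates. Same-numbered libraries of different tissues were not treated as paired. No replicate pair of 36 agreed within sampling noise.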

Additional observations from a re-analysis of the deposited data

Results flagged for a closer look

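The KO effect on Impact, the inhibitor of the tRNA-sensing kinase Eif2ak4, differed between tissues by an interaction test over 24 libraries with limma-voom. Cerebellum minus liver gave -0.43 on the log2 scale (limma adjusted p = 0.0410), and testes minus cerebellum gave 0.35 (limma adjusted p = 0.0464). These are 2 of 21 pairs of gene and comparison, against 7.67% to 15.9% of all genes that passed. The second call was lost with the replicate number as a block (limma adjusted p = 0.0782), with edgeR (0.0523) and with DESeq2 size factors in limma (0.0519). Leaving out single libraries ended the first call in 9 of 24 cases and the second in 14 of 24. Impact was lower in 3 of 4 KO libraries of cerebellum than in every WT library, and higher than in every WT library in 3 of 4 KO libraries of liver and in 3 of 4 of testes.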

How the results depend on the processing

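Counts of members past the threshold in the KO comparison were 0 in each tissue with limma and went to 1 in cerebellum with edgeR and with sample weights, to 1 in liver with sample weights and in the fit over 24 libraries, and to 1 in testes with edgeR, DESeq2, TMM and the fit over 24 libraries. With single libraries left out they ranged from 0 to 1 in cerebellum (1 without KO library 6) and in testes (1 without WT library 1, KO library 5 or KO library 6). The count of differing KO effects went from 2 to 1 with the replicate block, edgeR and DESeq2 size factors, and ranged from 0 to 4 with single libraries left out (4 without liver WT library 4, 0 without liver WT library 2, cerebellum WT libraries 1 or 4, or cerebellum KO libraries 5, 7 or 8). The cause was not tested. With the replicate number as a block, the difference of Impact between testes and cerebellum was 0.36 (limma adjusted p = 0.0782) and that between cerebellum and liver -0.44 (limma adjusted p = 0.0208), and the block changed no other call. Whether libraries with the same number share an animal is not known. Their deviations from the group means correlated with r from -0.186 to 0.249 in 24 pairs, 6 of them over 0.1, and in 9 of the 24 the same-numbered library was the best match among 4, so the numbers did not meet the criterion for pairing (r over 0.1 in every pair).

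No paired analysis was possible within a tissue because WT and KO libraries share no numbers.

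Several values near 0 changed sign. In the fit over 24 libraries these were Eif2ak4 in cerebellum (-0.011) and Eif2ak1 (-0.029), Eif2ak2 (-0.00039) and Eif2ak4 (-0.016) in liver. With sample weights they were Eif2ak2 (-0.0070) and Eif2ak4 (-0.037) in liver and Eif2ak2 (0.020), Eif2ak3 (-0.051) and Ppp1r15a (-0.10) in testes. With libraries left out, Eif2ak4 ranged from -0.026 to 0.034 and Ppp1r15a from -0.060 to 0.041 in cerebellum, Eif2ak2 from -0.033 to 0.14 and Eif2ak4 from -0.047 to 0.074 in liver, Eif2ak2 from -0.11 to 0.013 in testes, and the WT difference of Eif2ak3 between cerebellum and liver from -0.020 to 0.12.

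Among WT tissue differences, library totals as the only scaling turned Eif2ak1 to 0.65 (cerebellum minus liver), -0.013 (testes minus cerebellum) and 0.64 (testes minus liver), Eif2ak2, Eif2ak4 and Impact in testes minus liver to 0.77, 0.18 and 0.28, Ppp1r15a in cerebellum minus liver to 0.55 and Ppp1r15b in testes minus cerebellum to -0.21. Quantile scaling turned testes minus cerebellum to -0.035 for Eif2ak1 and -0.26 for Ppp1r15b. Between testes and liver the median of all genes itself was 0.87 with TMM, 1.81 with library totals and -0.26 with quantile scaling. The count past the threshold was 18 to 20.

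With the longest transcript as the length, kinase shares moved by more than 1 SD to 4.71% (Eif2ak2) and 25.9% (Eif2ak4) in WT cerebellum, 13.4% (Eif2ak2) in WT liver and 13.2% (Eif2ak4) in WT testes. Without a length correction they moved to 35.6% (Eif2ak1), 4.38% (Eif2ak2) and 29.6% (Eif2ak4) in WT cerebellum, 12.8% and 16.5% (Eif2ak2 and Eif2ak4) in WT liver and 18.5% and 15.7% in WT testes. Ppp1r15b per Ppp1r15a without a length correction was 13.4 in WT and 9.82 in KO liver, against 7.05 and 5.16 per length. This is a change of scale common to all libraries. With 4 libraries a group, changes smaller than the intervals given could not be told from 0, and transcript counts do not measure protein or its phosphorylation.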
